A study of Mus musculus with 6 samples.

Results

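Tagln2, Diaph3, Gpr119 and Serpina10 are 4 of the 36528 genes counted in lumbar dorsal root ganglia, the clusters of sensory neuron cell bodies beside the spinal cord. They were chosen from these same libraries because their counts were higher in all 3 Nav1.7 conditional knockout (cKO) libraries than in all 3 control libraries. The cKO mice (n = 3) were homozygous for a loxP-flanked Scn9a gene, which encodes the sodium channel Nav1.7, and carried the transgene pCAAG.Cre.ER. This transgene encodes CreER, a Cre recombinase that acts on loxP sites once an oestrogen receptor ligand has been given. The controls (n = 3) were littermates with the same floxed gene and without the transgene. All were females of 12 to 18 weeks, and the 6 lumbar ganglia L4, L5 and L6 of 1 mouse made up each library. The labels name neither the inducing agent nor the time from induction to dissection. The series title calls the knockout global, and the labels do not state in which cells Cre acted.

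The 4 genes have separate known roles. Tagln2 (transgelin-2) belongs to the calponin and transgelin family, whose proteins bind along actin filaments and bundle or stabilise them. Diaph3 (also called mDia2) is a formin, a protein that nucleates actin filaments and elongates them at their growing end, and takes part in cell division. Gpr119 is a receptor coupled to stimulatory G protein that responds to oleoylethanolamide and monoacylglycerols and is best known in pancreatic beta cells and gut endocrine cells. Serpina10, the protein Z-dependent protease inhibitor, is a plasma serpin made mainly by the liver that blocks coagulation factor Xa together with protein Z.

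Total counts were 61291709, 62625441 and 52309273 in cKO replicates 1 to 3 and 40237131, 54677143 and 63332040 in control replicates 1 to 3. Scn9a itself had 565 to 620 CPM (counts scaled to library size with TMM factors) in the cKO libraries and 557 to 635 CPM in the controls, with overlapping ranges. Reads from the whole gene are counted, including those outside any deleted part, so this value does not check the genotype. Sensory neuron markers were abundant in every library, with a summed level of 9473 to 11178 CPM over 10 genes in cKO libraries and 9273 to 10175 CPM in controls. In edgeR's quasi-likelihood fit (adjusted p under 0.05 after Benjamini and Hochberg), 39 of the 22043 genes that passed the count filter (0.177%) were higher and 121 (0.549%) lower in cKO ganglia. Control replicate 2 stood apart by skeletal muscle transcripts, with a summed marker level of 76.9 CPM against 7.10 to 10.7 CPM in the other libraries. cKO replicate 3 stood apart by markers of red blood cells, with 83.9 CPM against 33.4 to 44.8 CPM elsewhere.

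Stretches of 250 bases before the annotated start of 3 of the genes are shown because the genes were selected for moving in the same direction. They come from RefSeq on GRCm38.p6, read 5′ to 3′ on the strand of the gene. The start used for Diaph3 lies inside the gene's annotated span, so that the 23 bases of its stretch nearest that start are within the gene. Capitals mark matches, on either strand, to the GC box GGGCGG and the CCAAT box CCAAT.
Tagln2, chr1:172499996-172500245, plus strand: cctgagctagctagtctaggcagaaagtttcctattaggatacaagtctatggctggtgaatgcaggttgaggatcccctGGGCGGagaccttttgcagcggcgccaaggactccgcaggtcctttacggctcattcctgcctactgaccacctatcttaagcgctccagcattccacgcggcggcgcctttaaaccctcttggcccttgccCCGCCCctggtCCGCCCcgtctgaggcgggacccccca
Diaph3, chr14:87141225-87141474, minus strand: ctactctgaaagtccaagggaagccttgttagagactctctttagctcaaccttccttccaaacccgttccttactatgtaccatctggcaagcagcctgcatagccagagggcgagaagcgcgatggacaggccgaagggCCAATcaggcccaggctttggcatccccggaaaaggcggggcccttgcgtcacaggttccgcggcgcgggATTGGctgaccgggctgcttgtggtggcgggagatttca
Gpr119, chrX:48674479-48674728, minus strand: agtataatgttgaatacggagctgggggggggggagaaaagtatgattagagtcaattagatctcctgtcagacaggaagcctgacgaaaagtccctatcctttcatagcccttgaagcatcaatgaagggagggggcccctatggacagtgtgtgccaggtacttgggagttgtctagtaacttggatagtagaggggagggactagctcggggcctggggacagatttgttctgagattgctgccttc
The Tagln2 stretch held 3 GC boxes, of which the nearest lay 27 to 22 bases before the start, and the Diaph3 stretch held 2 CCAAT boxes, at 109 to 105 and 39 to 35 bases before the start. Neither motif occurred in the Gpr119 stretch. Over 32851 promoter stretches of the same length, 32.7% held a GC box and 33.8% a CCAAT box. The other motifs searched on both strands were the AP-1 site TGANTCA (6.75% of all stretches), the cyclic AMP response element TGACGTCA (1.55%), an E2F site TTTNNCGC (4.28%) and the TATA box TATAAA (12.4%). The CArG box bound by serum response factor (1.47%) and the palindromic oestrogen response element (0.0639%) were searched as well. None of these 6 motifs was found in the 3 stretches. The GC content was 60.0% for Tagln2, 58.8% for Diaph3 and 50.4% for Gpr119, against a median of 52.4% over all stretches. No motif was shared by all of them.

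Tagln2 (NCBI gene 21346) spans chr1:172500246-172507375 in GRCm38 on the plus strand, and no other annotated gene overlaps it. It had 133, 157 and 147 CPM in cKO replicates 1 to 3, against 75.1, 81.5 and 96.2 CPM in control replicates 1 to 3. The lowest cKO library had 1.38 times the level of the highest control, the narrowest gap among the 4 genes. The means were 146 ± 12.3 CPM in cKO ganglia and 84.2 ± 10.8 CPM in controls (SD, n = 3 each), a log2 fold change of 0.79 ± 0.10 (SE). Counts ran from 7822 to 9665 per cKO library and from 3051 to 6080 per control library, so counting error is small beside the spread between mice. In bulk tissue, more cells that hold a transcript and more transcript per cell cannot be told apart, which holds for each gene described here.

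Diaph3 (NCBI gene 56419) spans chr14:86655357-87141247 on the minus strand. It had 23.6, 24.9 and 24.3 CPM in cKO replicates 1 to 3, against 15.3, 14.8 and 15.6 CPM in control replicates 1 to 3. The coefficient of variation between libraries was 2.69% in cKO ganglia and 2.63% in controls. At these counts that is about the size of counting error or less, so it does not show how alike the mice were. The means were 24.3 ± 0.653 CPM in cKO ganglia and 15.2 ± 0.400 CPM in controls (SD, n = 3 each), and the log2 fold change was 0.67 ± 0.06 (SE), the smallest of the 4. Its deposited width of 484929 bases covers nearly the whole gene. Annotated exons make up 1.15% of the span, so reads from introns can add to its count. The long noncoding RNA gene Gm33025 lies inside it and had 3 to 5 counts per cKO library and 0 to 2 per control library, where Diaph3 had 1291 to 1532 counts per cKO library and 621 to 985 per control library. GENCODE places the genes Gm49159 and Gm23438 inside it on the same strand.

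Gpr119 (NCBI gene 236781) spans chrX:48667979-48674478 on the minus strand, with no overlapping gene. It had 3.20, 3.42 and 3.98 CPM in cKO replicates 1 to 3, against 1.80, 1.93 and 1.52 CPM in control replicates 1 to 3. The means were 3.53 ± 0.404 CPM in cKO ganglia and 1.75 ± 0.211 CPM in controls (SD, n = 3 each), and the log2 fold change of 1.02 ± 0.15 (SE) was the highest of the 4. These levels rest on 192 to 212 counts per cKO library and 73 to 107 per control library. The exact 95% Poisson interval covers counting error only and not the variation between mice. It ran from 2.77 to 3.69 CPM in the lowest cKO library and from 1.58 to 2.33 CPM in the highest control library. The gene was chosen for this order of libraries, so the intervals are no test of the difference.

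Serpina10 (NCBI gene 217847) spans chr12:103616675-103631490 on the minus strand, with no overlapping gene, in a cluster of clade A serpin genes. In CPM, which are not scaled to gene length, it was the lowest of the chosen genes. It had 1.85, 1.66 and 1.80 CPM in cKO replicates 1 to 3. The values in control replicates 1 to 3 were 0.984, 0.957 and 1.01 CPM. The means were 1.77 ± 0.0995 CPM in cKO ganglia and 0.984 ± 0.0277 CPM in controls (SD, n = 3 each), with a log2 fold change of 0.85 ± 0.15 (SE). It had 96 to 111 counts per cKO library and 40 to 64 per control library. The exact 95% Poisson interval was 1.35 to 2.02 CPM in the lowest cKO library and 0.780 to 1.29 CPM in the highest control library. Each interval holds all 3 values of its group. Both SDs are smaller than counting error alone would give, so they do not measure the spread between mice. As for Gpr119, these intervals are no test of the difference.

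**Figure D1:**
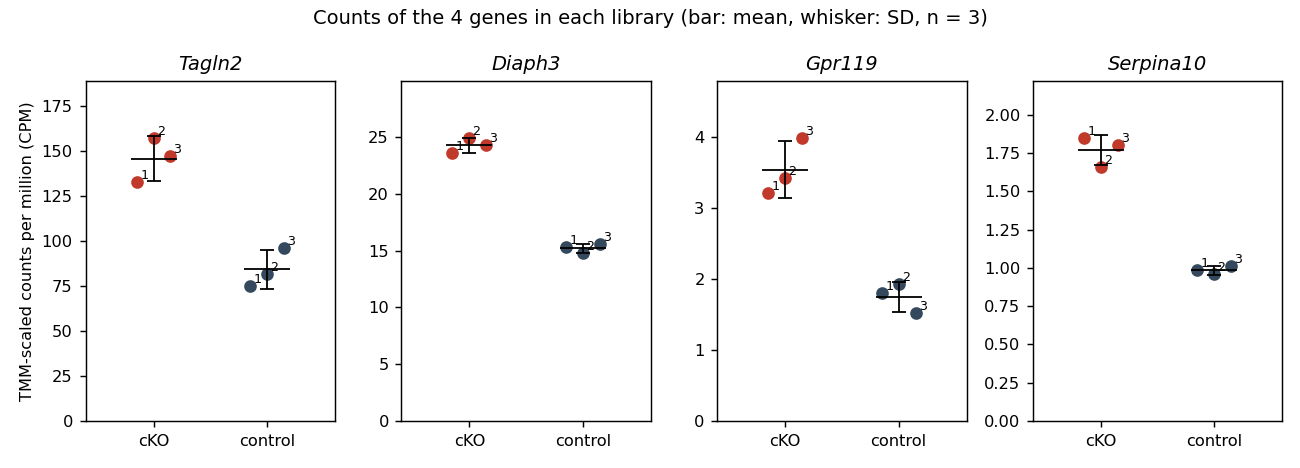
TMM-scaled CPM of Tagln2, Diaph3, Gpr119 and Serpina10 in each of 3 cKO and 3 control libraries; points are libraries with their replicate number, the bar is the mean and the whisker the SD, and each vertical axis starts at 0. For each gene all 3 cKO points lie above all 3 control points, by construction of the choice, with the narrowest gap for Tagln2 (133 against 96.2 CPM).

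All 4 genes passed edgeR's adjusted threshold of 0.05, beside 0.177% of tested genes called higher. Of all tested genes, 1461 (6.63%) were likewise higher in every cKO library than in every control library, and 2053 (9.31%) were lower in every one. The choice used this contrast, so neither share is read as a result about the 4 genes. With 1 library left out from 1 to 4 of them passed, and without control replicate 2 only Diaph3 did. Over 16 alternatives Tagln2 missed the threshold in 2, Gpr119 in 3 and Serpina10 in 6. By size of log2 fold change, Gpr119, Serpina10, Tagln2 and Diaph3 ranked 9, 10, 12 and 16 among the 39 genes called higher. The lowest cKO level divided by the highest control level was 1.66 for Gpr119, 1.64 for Serpina10, 1.52 for Diaph3 and 1.38 for Tagln2. When a library is left out, the choice of the genes already fixes a higher mean in cKO ganglia. Over all 16 alternatives the log2 fold changes ran from 0.71 to 0.90 for Tagln2, 0.52 to 0.70 for Diaph3, 0.92 to 1.10 for Gpr119 and 0.74 to 0.89 for Serpina10. Without control replicate 2 and cKO replicate 3, the pair that stood apart in non-neuronal transcripts, the values were 0.76, 0.65, 1.01 and 0.81 in the same order.

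**Figure D2:**
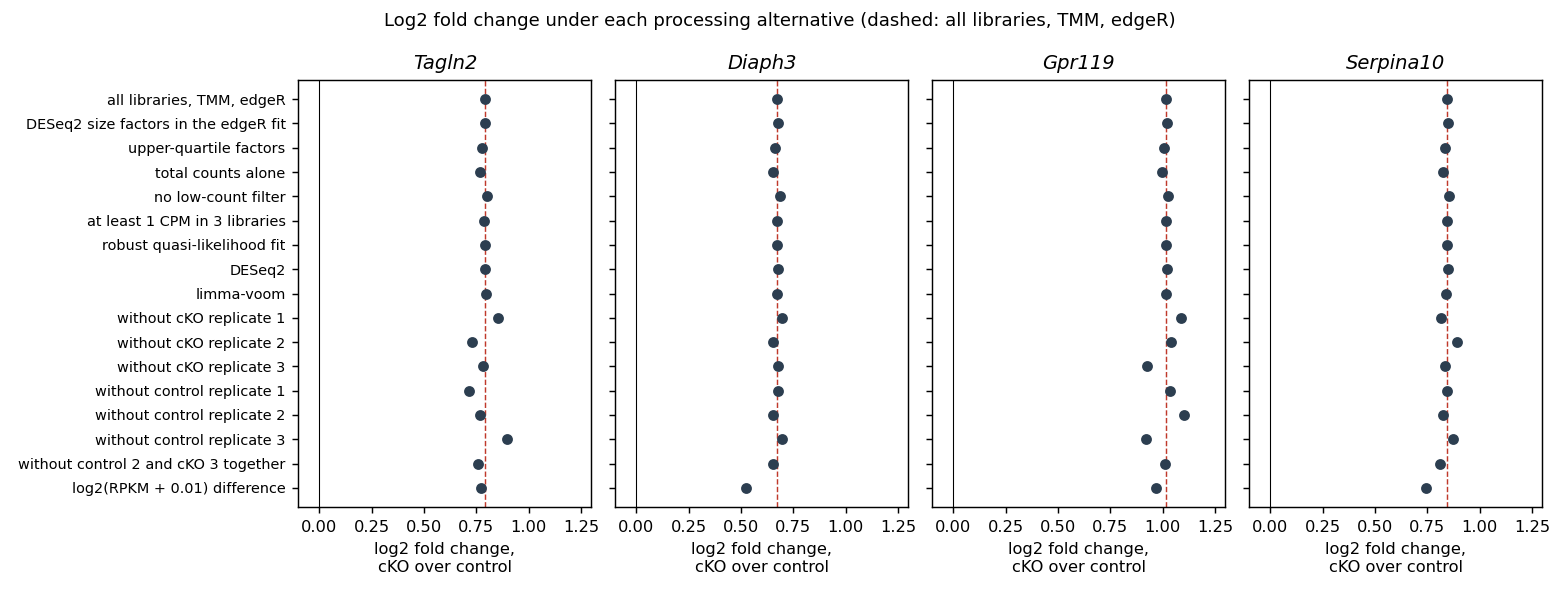
Log2 fold change of cKO over control (horizontal axis) for each gene under all libraries and each of 16 alternatives (rows); the dashed line marks the value with all libraries. The values run from 0.52 for Diaph3 with the log2(RPKM + 0.01) difference to 1.10 for Gpr119 without control replicate 2.

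Within groups the correlations between the 4 genes had both signs. After each group's mean was subtracted, log2 CPM over the 6 libraries correlated between Tagln2 and Diaph3 with a Pearson r of 0.71, and the other 5 pairs had r from -0.34 to -0.22. cKO replicate 2 was the highest cKO library for Tagln2 and Diaph3 and the lowest for Serpina10, while cKO replicate 3 was the highest for Gpr119. Among 17468 genes averaging 1 CPM or more, the group-centred pattern of Tagln2 was most like those of Rabep2, Galnt6 and Pgam5 (r at least 0.99). That of Diaph3 was most like Isyna1, Dmap1 and Ier3, that of Gpr119 like Xndc1, Rxrg and Bcl2l12, and that of Serpina10 like Ywhaq, Gm34717 and Dnase1l2, all with r at least 0.99. An r over 0.9 was reached by 256 genes (1.47%) with Tagln2, 186 (1.07%) with Diaph3, 514 (2.94%) with Gpr119 and 135 (0.773%) with Serpina10. Each r rests on 6 libraries after the group means were subtracted, and the named genes are the closest of 17468. A high r alone therefore shows no link between genes. The mice, depth and dissection are shared by all points, so these values describe the libraries alone.

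The other calponin and transgelin genes were measured at levels that overlapped between groups. Tagln, transgelin of smooth muscle, had 16.6, 19.5 and 22.9 CPM in cKO libraries, against 18.7, 19.9 and 17.9 CPM in controls (log2 fold change 0.06). Tagln3, the neuronal transgelin, had 243, 246 and 224 CPM in cKO libraries, against 222, 216 and 250 CPM in controls (0.05). Of 5 family genes tested besides Tagln2, 0 passed with edgeR, DESeq2 or limma-voom and 0 had an unadjusted edgeR p under 0.05, beside 0.726%, 1.93%, 0.721% and 10.5% of all tested genes. Their median was 0.05, against 0.00 over all tested genes. The value for Cnn1, calponin 1 of smooth muscle, was 0.77 ± 0.36 (SE) at 0.364 to 1.43 CPM, with overlapping groups. Cnn3 had 0.04, and Cnn3 and Tagln were below 0 without control replicate 2 and cKO replicate 3 (-0.01 and -0.02).

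Per length, in the authors' RPKM (reads scaled to gene width and library total), Tagln2 and Tagln3 were the most abundant of this family. Tagln2 averaged 20.6 ± 1.91 RPKM in cKO ganglia and 12.1 ± 1.48 RPKM in controls, and Tagln3 averaged 18.0 ± 0.564 RPKM in cKO ganglia and 17.6 ± 1.296 RPKM in controls (SD, n = 3 each). In cKO replicates 1 to 3 Tagln2 had 18.5, 22.1 and 21.3 RPKM. Tagln3 had 18.1, 18.5 and 17.4 RPKM in the same libraries. Tagln2 was thus higher in each, narrowly in replicate 1, though the ranges overlapped slightly near 18.5 RPKM. In controls every Tagln2 value, 10.8 to 13.7 RPKM, lay under every Tagln3 value, 16.7 to 19.1 RPKM. Among 21271 protein-coding genes Tagln2 ranked 424 by mean RPKM in cKO ganglia and 799 in controls. Serpina10 ranked 12926 and 13893, Gpr119 9596 and 11404, and Diaph3 14278 and 14905 in cKO and control ganglia. Width here is close to the whole gene with its introns, which lowers the RPKM of a long gene such as Diaph3.

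Formins other than Diaph3 showed no calls. Of 13 tested, 0 passed with edgeR, DESeq2 or limma-voom, beside 0.726%, 1.93% and 0.721% of all tested genes. For 3 the unadjusted edgeR p was under 0.05, against 10.5% of all tested genes. The list's median was 0.02. Fmn2, a formin of neurons, had 38.1, 38.9 and 33.0 CPM in cKO libraries, against 31.5, 30.0 and 31.3 CPM in controls (log2 fold change 0.24, edgeR adjusted p = 0.223), with all cKO values above all control values. It passed without cKO replicate 3 (edgeR adjusted p = 0.0186). Daam2 had -0.17 and Fmnl1 -0.16 (edgeR adjusted p = 0.334 and 0.452). The closest relatives of Diaph3, the formins Diaph1 and Diaph2, had log2 fold changes of -0.02 and 0.02. Diaph1 ranged from 33.7 to 35.8 CPM in cKO libraries and from 33.3 to 36.1 CPM in controls. Per length, Diaph3 stood at 0.0506 ± 0.00190 RPKM in cKO ganglia and 0.0321 ± 0.000643 RPKM in controls (SD, n = 3 each), rank 13 and 14 of 14 formins. Diaph2, its neighbour in this order, averaged 0.0383 RPKM in both groups.

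Factors that act on actin monomers, filament turnover and branching were likewise below the threshold with edgeR. Of 26 actin monomer and turnover genes, Scin, the filament-severing protein scinderin, had 18.8, 15.5 and 10.8 CPM in cKO libraries, against 27.6, 25.9 and 25.2 CPM in controls (log2 fold change -0.80 ± 0.16 SE). Its edgeR adjusted p was 0.0687, 2.49e-05 with DESeq2, 0.0164 without cKO replicate 1, 0.0128 without cKO replicate 3 and 0.0182 with no count filter. Pfn1, the actin monomer binder profilin 1, had 0.19 and Actb, beta-actin, 0.22 (edgeR adjusted p = 0.243 and 0.344). In that list 0 genes passed with edgeR or limma-voom and 1 with DESeq2, beside 0.726%, 0.721% and 1.93% of all tested genes. For 5 the unadjusted edgeR p was under 0.05, against 10.5% of all tested genes. The same shares apply to the 22 genes of the Arp2/3 complex and its activators. Of these, 0 passed with edgeR, DESeq2 or limma-voom. Arpc4 (0.19) was the 1 gene with an unadjusted edgeR p under 0.05, followed by Arpc5l (0.11). The medians of both lists were 0.03.

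Serum response factor and its cofactors of the MRTF family drive many actin genes in other cells. Of 22 tested genes of that list, 0 passed with edgeR, DESeq2 or limma-voom, beside 0.726%, 1.93% and 0.721% of all tested genes. For 3 the unadjusted edgeR p was below 0.05, against 10.5% of all tested genes, and the list's median was -0.02. Filip1l had 1083, 66.5 and 412 CPM in cKO replicates 1 to 3, against 72.2, 68.2 and 59.4 CPM in control replicates 1 to 3 (2.97 ± 0.74 SE, edgeR adjusted p = 0.156). It was far higher in cKO replicates 1 and 3, while replicate 2 lay within the control range, and it passed without cKO replicate 2 (edgeR adjusted p = 0.00329) and with no count filter (0.0418). Actn1 had -0.21 and Zyx 0.21, with edgeR adjusted p values of 0.200 and 0.431, and Zyx passed without cKO replicate 3 (0.0384).

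Gpr119 was measured beside 32 listed receptors for lipids and cannabinoids, of which 24 had enough counts to test. With edgeR, DESeq2 or limma-voom 0 passed, beside 0.726%, 1.93% and 0.721% of all tested genes. For 3 the unadjusted edgeR p was below 0.05, all with positive estimates, against 10.5% of all tested genes. The list's median was 0.03. S1pr2, a sphingosine-1-phosphate receptor, had 7.15, 7.41 and 7.74 CPM in cKO libraries, against 5.86, 6.28 and 5.55 CPM in controls (0.33, edgeR adjusted p = 0.197). Gpr3, a receptor that raises cyclic AMP without an added ligand, had 3.83, 4.56 and 4.12 CPM in cKO libraries, against 2.80, 2.51 and 3.62 CPM in controls (0.48, edgeR adjusted p = 0.273). Cnr1, cannabinoid receptor 1, had 50.4 to 60.2 CPM in cKO libraries and 54.6 to 60.1 CPM in controls (-0.07). Gpr55, another receptor with lipid ligands, had -0.21 at 0.423 to 0.813 CPM. By mean RPKM, Gpr119 ranked 13 of 33 in cKO ganglia, at 0.542 ± 0.0743, and 14 in controls, at 0.272 ± 0.0345 (SD, n = 3 each). Its neighbours in the cKO order were S1pr2 at 0.693 ± 0.0426 and Ptger2 at 0.318 ± 0.0216, and in controls Ptger2 stood above it at 0.355 ± 0.0531.

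Enzymes that make or break down its ligands, acylethanolamides and monoacylglycerols, were listed together with the fatty acid carriers Fabp5 and Fabp7. Of 15 genes of this list tested, 0 passed with edgeR, DESeq2 or limma-voom. For 0 was the unadjusted edgeR p below 0.05. The shares over all tested genes were 0.726%, 1.93%, 0.721% and 10.5%. The list's median was 0.05. Napepld, which makes acylethanolamides, had -0.07, and Faah, which breaks them down, had 0.04. Abhd6, a monoacylglycerol hydrolase, had 29.2, 29.5 and 30.0 CPM in cKO libraries, against 26.8, 27.9 and 28.8 CPM in controls (0.08). Fabp7, a fatty acid carrier of satellite glia, had 149, 130 and 375 CPM in cKO libraries, against 185, 127 and 130 CPM in controls. Its estimate of 0.57 rested on cKO replicate 3 and was -0.08 without it (edgeR adjusted p = 0.832) and -0.17 without that library and control replicate 2.

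Of 25 clade A serpin genes besides Serpina10, 9 were tested. With edgeR, DESeq2 or limma-voom 0 of them passed, beside 0.726%, 1.93% and 0.721% of all tested genes. For 2, Serpina3f and Serpina3h (-0.30), the unadjusted edgeR p was below 0.05, against 10.5% of all tested genes. These genes include near-identical copies, between which reads can be split, so their single values are uncertain. Serpina3n, a serpin known to rise in injured nerve, had 109, 189 and 110 CPM in cKO libraries, against 106, 105 and 135 CPM in controls (0.24, edgeR adjusted p = 0.759). Serpina3f had 0.133, 2.65 and 0.263 CPM in cKO libraries, against 0.246, 0.126 and 0.127 CPM in controls, and cKO replicate 2 alone was high. Serpina3m, under the count filter, had 1, 270 and 11 counts in cKO replicates 1 to 3, against 3, 4 and 9 counts in control replicates 1 to 3, with the same library high. Serpina10 was not high in that library, where it had its lowest cKO level. The median log2 fold change of the 9 tested genes was 0.17. By mean RPKM, Serpina10 ranked 9 of 26 clade A serpins in cKO ganglia, at 0.120 ± 0.00737, and 8 in controls, at 0.0678 ± 0.00145 (SD, n = 3 each). As with its CPM, these SDs are below counting error and do not measure the spread between mice.

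Among serpins of other clades, Serpinf1 rose. It encodes pigment epithelium-derived factor, a secreted serpin without protease inhibition, and had 65.0, 72.5 and 69.7 CPM in cKO libraries, against 52.2, 56.2 and 54.5 CPM in controls. The log2 fold change was 0.35 ± 0.06 (SE), with an edgeR adjusted p of 0.0302 and a range from 0.000228 to 0.189 over 15 alternatives. The call was lost without cKO replicate 2 (edgeR adjusted p = 0.0838), without control replicate 1, 2 or 3 (0.189, 0.112 and 0.139) and without control replicate 2 and cKO replicate 3 (0.0751). It was the single call among 18 tested genes of this list, whose median was 0.04, beside 0.726% of all tested genes called with edgeR. Serpinh1, a collagen chaperone, had 36.1, 40.8 and 58.1 CPM in cKO libraries, against 35.3, 40.0 and 32.7 CPM in controls (0.32, edgeR adjusted p = 0.528). Fibroblast markers, whose cells also express Serpinf1, summed to 990, 1026 and 1610 CPM in cKO libraries, against 1249, 1079 and 904 CPM in controls, and their part in the result was not tested.

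The partner and targets of Serpina10 were scarce in the ganglia. Proz, protein Z, had 1.25, 1.37 and 1.05 CPM in cKO libraries, against 1.08, 1.05 and 1.33 CPM in controls (log2 fold change 0.08). F10, factor X, had 3 to 6 counts per cKO library and 6 or 7 per control library, and F11, factor XI, had 8 to 11 counts per cKO library and 4 to 9 per control library, both too few to test. Of 25 tested coagulation factors and protease-activated receptors, 0 passed with edgeR or limma-voom and 1 with DESeq2. Over all tested genes these shares were 0.726%, 0.721% and 1.93%. For 3 the unadjusted edgeR p was below 0.05, against 10.5% of all tested genes. The list's median was 0.03. Plau, the urokinase plasminogen activator, had 4.90, 5.65 and 6.79 CPM in cKO libraries, against 9.32, 8.65 and 8.48 CPM in controls (-0.61 ± 0.12 SE, edgeR adjusted p = 0.0653). Every cKO value lay below every control value. Plau passed with DESeq2 (0.000815), with no count filter (0.0291), with a robust fit (0.0491), without cKO replicate 3 (0.00939), and without that library and control replicate 2 (0.0478). F2rl1, protease-activated receptor 2, had means of 0.542 CPM in cKO libraries and 1.04 CPM in controls (-0.91, edgeR adjusted p = 0.258).

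**Figure D3:**
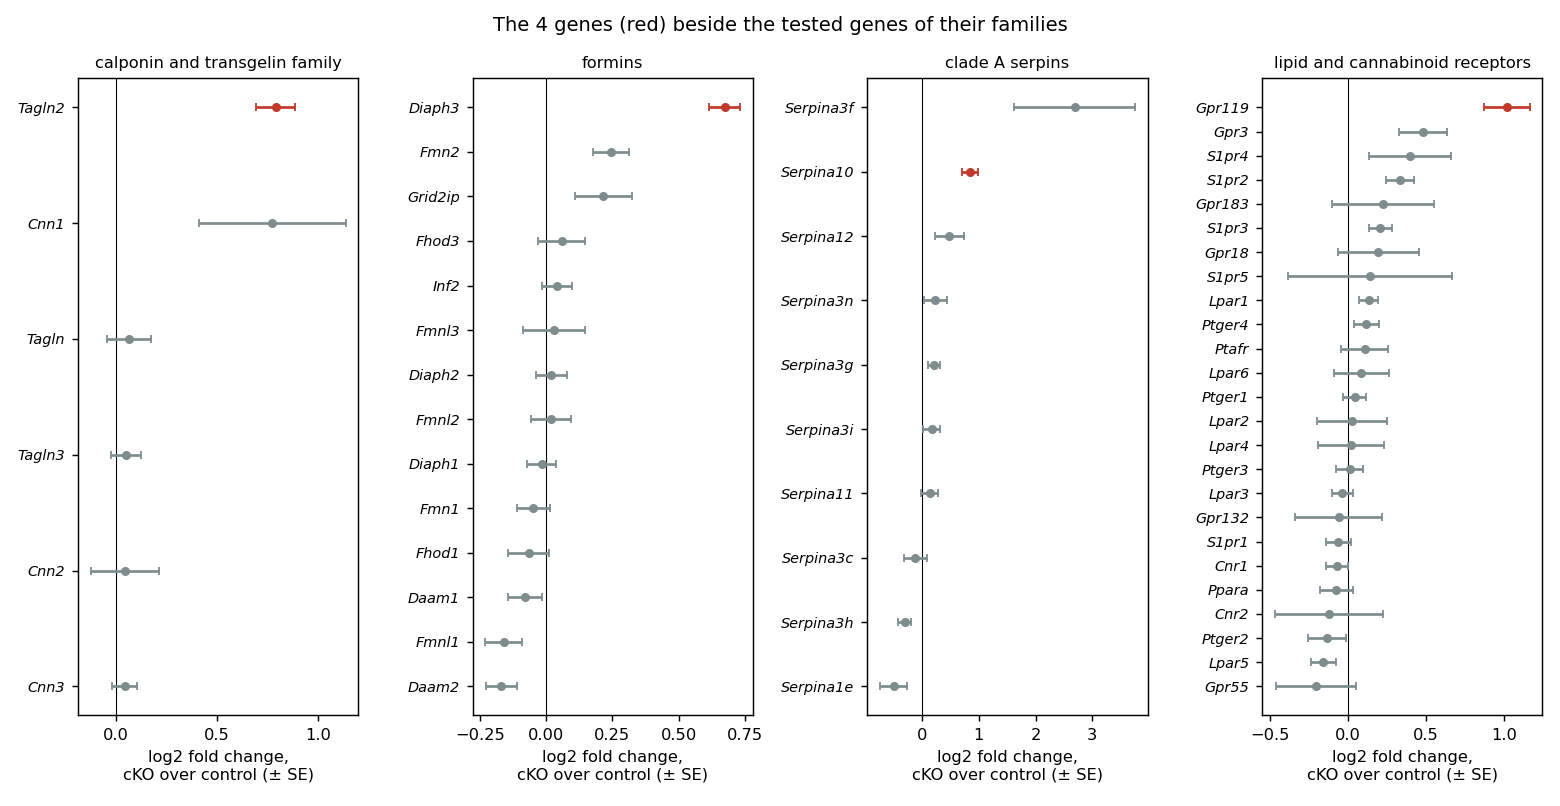
Log2 fold change of cKO over control with its SE for the tested genes of 4 families (rows, sorted by value); the red point in each panel is Tagln2, Diaph3, Serpina10 or Gpr119, which were chosen for being higher. The 4 red points lie at 0.79, 0.67, 0.85 and 1.02, and Serpina3f, high in cKO replicate 2 alone, has a wide error.

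Genes near the 4 on their chromosomes were examined within 250 kb. Of 40 such genes 24 were tested, 0 passed with edgeR, DESeq2 or limma-voom, beside 0.726%, 1.93% and 0.721% of all tested genes. For 5 the unadjusted edgeR p was below 0.05, against 10.5% of all tested genes. Over the 24 the log2 fold changes ran from -0.31 to 0.35, with a median of 0.08. The nearest tested neighbour of Tagln2, Igsf9, an adhesion molecule gene 1.369 kb away, had 2.40, 2.83 and 3.06 CPM in cKO libraries, against 2.44, 1.95 and 2.18 CPM in controls (0.34, edgeR adjusted p = 0.458). Also near Tagln2, Igsf8 (0.21), Kcnj10 (0.23), the potassium channel gene of satellite glia, and Dusp23 (0.35) had unadjusted edgeR p values of 0.00292, 0.00816 and 0.0464. Slc25a14, 5.681 kb from Gpr119, had -0.01, and Ppp4r4, 2.836 kb from Serpina10, had 0.06. Ddx24, also near Serpina10, had 0.16 (edgeR adjusted p = 0.411). The serpin genes Serpina6, Serpina16, Serpina1a, Serpina1b, Serpina1d and Serpina1f beside Serpina10 had at most 4 counts in any library. None of the 3 neighbours of Diaph3 had enough counts to test.

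**Figure D4:**
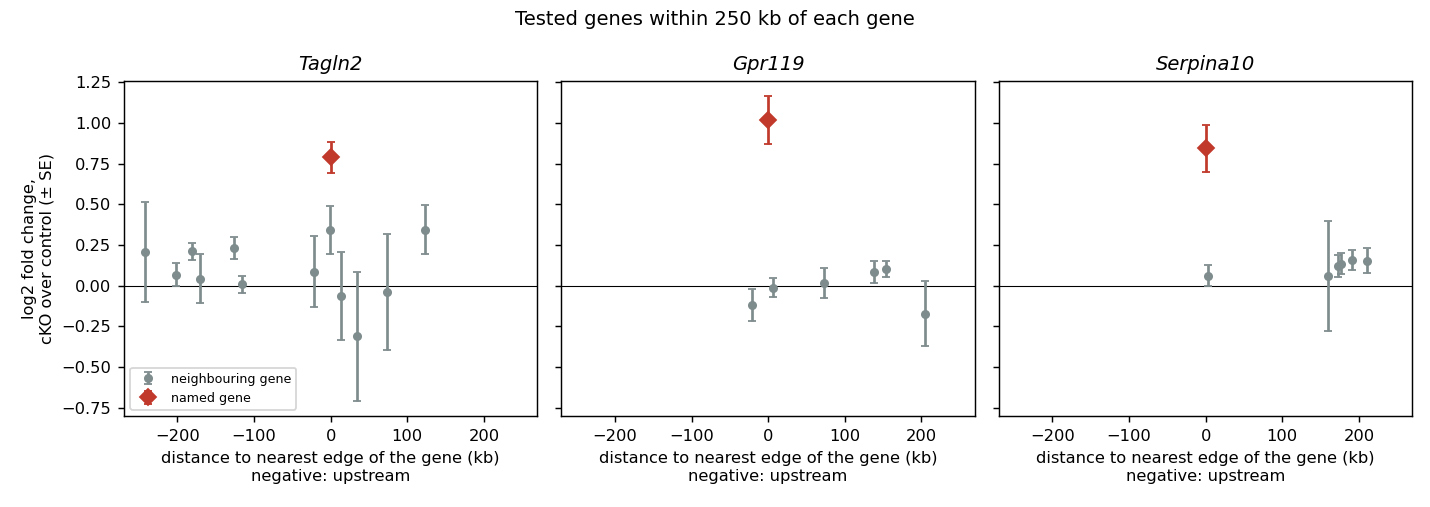
Log2 fold change of cKO over control with its SE (vertical axis) for tested genes within 250 kb of Tagln2, Gpr119 and Serpina10, by distance in kb from the nearest edge of that gene (horizontal axis, negative values upstream); the red diamond is the gene itself. The neighbours lie between -0.31 and 0.35, under the red diamonds at 0.79, 1.02 and 0.85.

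Marker genes of other cells were summed in each library beside the 4 genes. Dividing cell markers, set beside Diaph3 because of its role in cell division, summed over 12 genes to 49.7, 47.2 and 57.8 CPM in cKO libraries, against 49.4, 54.3 and 49.7 CPM in controls. The groups overlapped, as they did for Anln, which had the highest CPM of this list. Anln had 15.7, 15.1 and 17.6 CPM in cKO libraries, against 16.2, 17.3 and 16.2 CPM in controls. Mki67, the proliferation antigen, had 4.23, 3.597 and 4.59 CPM in cKO libraries, against 4.06, 5.78 and 3.99 CPM in controls. Of 11 of these genes tested, 0 passed with edgeR, DESeq2 or limma-voom, beside 0.726%, 1.93% and 0.721% of all tested genes. For 1 the unadjusted edgeR p was below 0.05, against 10.5% of all tested genes. That gene, Bub1, a mitotic checkpoint kinase, had 1.88, 1.64 and 2.12 CPM in cKO libraries, against 1.35, 1.43 and 1.11 CPM in controls (0.54, edgeR adjusted p = 0.256). Birc5, which encodes survivin, had 1.92, 2.17 and 2.01 CPM in cKO libraries, against 1.70, 1.68 and 1.85 CPM in controls (0.22, edgeR adjusted p = 0.639). For both, every cKO value lay above every control value, as for 6.63% of all tested genes. Diaph3 has this order by choice. Of the 11 tested dividing cell markers 6 had positive estimates, and the list's median was 0.02.

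Markers of hepatocytes, the main source of Serpina10, summed over 8 genes to 4.92 to 7.41 CPM in cKO libraries and 4.35 to 6.12 CPM in controls. Alb, albumin, had 1 or 2 counts in every library. Cyp2e1 had 2.32, 2.56 and 4.53 CPM in cKO libraries, against 1.28, 2.67 and 2.85 CPM in controls. It was the largest part of the sum except in control replicate 1, where Serpinc1 had 1.33 CPM. Of pancreatic and gut endocrine markers, set beside Gpr119, Ins1 and Pyy were at 0 in all libraries and Ins2 had a single count, in cKO replicate 3. Nearly all of that list's sum of 99.8 to 133 CPM in cKO libraries and 92.7 to 107 CPM in controls came from Chga, which sensory neurons also express.

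Smooth muscle and pericyte markers, set beside Tagln2, summed over 8 genes to 173, 177 and 177 CPM in cKO libraries, against 211, 209 and 192 CPM in controls, with every cKO value below every control value. That order came from 1 gene: without Rgs5 the other 7 genes summed to 57.0, 65.7 and 72.4 CPM in cKO libraries, against 54.0, 60.6 and 55.9 CPM in controls, with overlap. In the list 6 of 8 genes had positive estimates, with a median of 0.23, and Pdgfrb, a receptor of pericytes, had 37.8, 41.6 and 40.1 CPM in cKO libraries, against 34.1, 35.7 and 34.0 CPM in controls (0.20, edgeR adjusted p = 0.208). Rgs5, a pericyte gene, fell, with 116, 111 and 104 CPM in cKO libraries, against 157, 148 and 136 CPM in controls (-0.41 ± 0.07 SE, edgeR adjusted p = 0.0341). That call ranged from 1.65e-05 to 0.183 over 15 alternatives and was lost without cKO replicate 1 or 2 (edgeR adjusted p = 0.0657 and 0.0788), control replicate 1, 2 or 3 (0.180, 0.183 and 0.0600), and control replicate 2 with cKO replicate 3 (0.104). Macrophage markers summed to 67.7, 67.8 and 123 CPM in cKO libraries, against 83.7, 74.5 and 63.5 CPM in controls, and endothelial markers to 109, 129 and 162 CPM in cKO libraries, against 116, 122 and 125 CPM in controls. cKO replicate 3 held the most of both. The macrophage sums of cKO replicates 1 and 2 were nearly equal, and cKO replicate 1 had the lowest endothelial sum of the cKO libraries. Tagln2 had 133, 157 and 147 CPM in cKO replicates 1 to 3. The part of these cells in the level of Tagln2 was not tested.

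The summed level of genes known to rise in sensory neurons after nerve injury was higher in cKO libraries, the direction for which the 4 genes were chosen. Their sum over 12 genes was 359, 385 and 363 CPM in cKO libraries, against 292, 313 and 316 CPM in controls, without overlap. Gap43, a growth cone gene, had the highest CPM of this list. Its values were 177, 173 and 164 CPM in cKO libraries, against 154, 154 and 162 CPM in controls. Of 11 tested, 8 had an unadjusted edgeR p below 0.05, against 10.5% of all tested genes, all positive, and the list's median was 0.54. Gal, the galanin gene, had -0.03 and Csf1 0.01, with overlapping groups. Cckbr, a cholecystokinin receptor gene, rose with edgeR (2.72 ± 0.42 SE, adjusted p = 0.0221) at 0.317, 0.439 and 0.658 CPM in cKO libraries, against 0.0492, 0.0903 and 0.0633 CPM in controls. That call was lost without control replicate 1, 2 or 3 (edgeR adjusted p = 0.109, 0.0983 and 0.134) and without control replicate 2 and cKO replicate 3 (0.0802), within a range from 0.00574 to 0.134 over 13 alternatives. Fst (0.85), Atf3 (0.65), Sox11 (0.48) and Jun (0.54) passed with DESeq2 and not with edgeR (adjusted p = 0.0533, 0.0536, 0.0573 and 0.127). Over all tested genes 1.93% passed with DESeq2 and 0.726% with edgeR. The part of the injury genes in the levels of Tagln2, Diaph3, Gpr119 and Serpina10 was not tested.

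**Figure D5:**
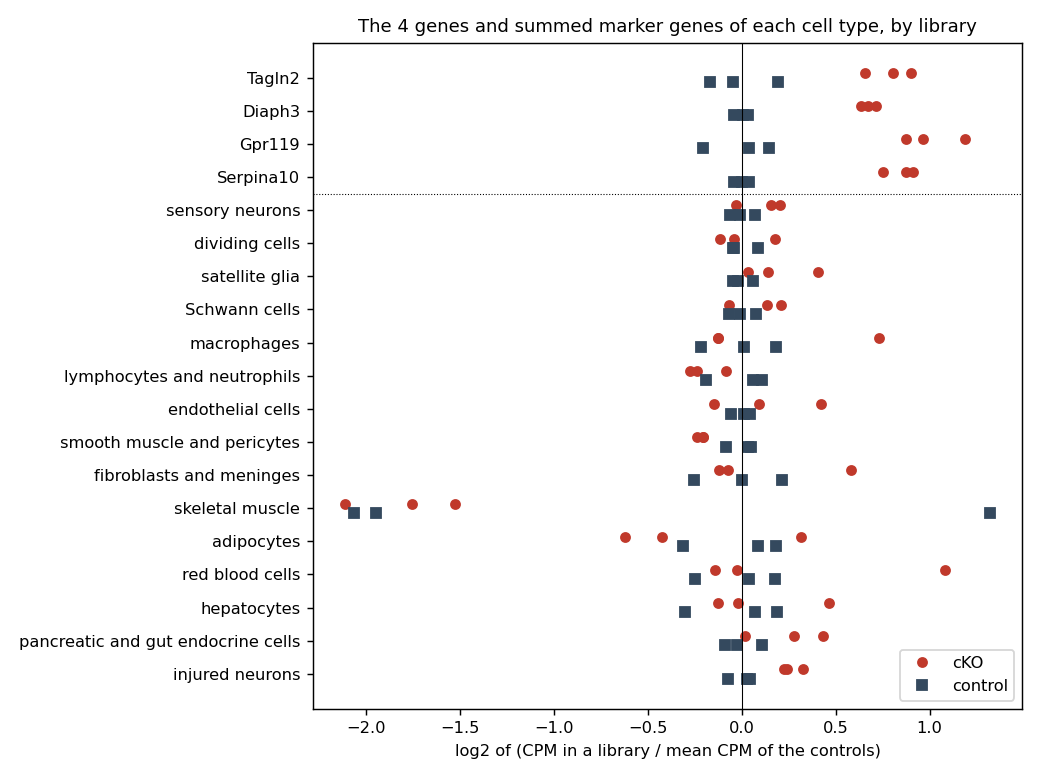
Log2 of the CPM in a library over the mean of the controls (horizontal axis) for the 4 genes (above the dotted line) and for the summed markers of each cell type (rows below it), with cKO libraries as red circles and control libraries as dark squares. The 4 genes, by construction of the choice, and injured neuron markers have all cKO points to the right of all control points. The smooth muscle and pericyte sum, most of which is Rgs5, has them to the left. Control replicate 2 stands far right for skeletal muscle.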

How the data were processed

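RNA of 6 libraries was analysed, grouped by the genotype label into 3 cKO and 3 control mice. Per the labels' protocols, ganglion RNA extracted with a kit for fatty tissue was sequenced on an Illumina instrument. The submitters' processing notes name GSNAP, a read aligner, and the build GRCm38 (mm10). No source used here names the counting tool, its annotation or its strand setting, so reads of overlapping genes cannot be told apart by strand. The deposited count is a whole number for each NCBI gene ID, per the file headers, and the deposited RPKM is that count per kilobase of a gene width and library total. The width is close to the whole gene span (difference up to 5%) for 77.7% of matched genes, so counts appear to include introns. Count sums lie 1.46% to 2.17% above the RPKM totals.

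Of 36528 IDs, 31049 matched a symbol in RefSeq GRCm38.p6, and the rest held 1.91% of counts. All 4 genes were found by ID and passed the filter (filterByExpr defaults), which left 22043 genes. Libraries were scaled with TMM factors and tested for group with edgeR 4.0.16 (R 4.3.3, quasi-likelihood, Benjamini-Hochberg over all tested genes at 0.05). CPM are TMM-scaled. The SE is the log2 fold change divided by the square root of F. The common biological coefficient of variation was 8.99%. No label gives a batch or pairs the mice, and replicate numbers follow accession order and only name the libraries. No 2 libraries of the same genotype were copies, by chi-square values divided by their degrees of freedom. These ran from 6.01 to 9.02 between control libraries and from 35.4 to 43.9 between cKO libraries. The cKO libraries thus differed more from each other by this measure, and the reason was not tested. On counts simulated for the cKO against control comparison in 22043 genes, edgeR recovered 64% of genes simulated at 1.5-fold and 78% of genes simulated at 2-fold, and 14 of 156 calls were unchanged genes.

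The members and lists were chosen with earlier results of these data known, so the edgeR calls of the 4 genes are a description and not a test. Genes named in the text are the 4 genes, the 2 to 4 genes of each pathway list that rank first by unadjusted p and any called there, called or most abundant markers, tested genes within 250 kb (the nearest and those with an unadjusted p under 0.05 singly, the rest and the markers of lists not discussed as sums, counts or ranges), and for each of the 4 the 3 genes of the closest group-centred pattern. Tagln, Tagln3, Cnn3, Diaph1, Diaph2, Cnr1, Gpr55, Napepld, Faah, Serpina3n, Serpina3m, Proz, F10, F11, Mki67, Bub1, Birc5, Pdgfrb, Gal, Csf1, Fst, Atf3, Sox11, Jun, Alb, Ins1, Ins2, Pyy, Slc25a14 and Ppp4r4 were named for their role or place with values known. The sum without Rgs5 was chosen after seeing the data. The GC and CCAAT boxes were added after the other motifs had been searched. Alternatives were other scalings (size factors of DESeq2, upper quartiles, totals), other count filters, a robust fit, DESeq2 1.42.0, limma-voom (limma 3.58.1), log2(RPKM + 0.01) and leaving out libraries. The result of 1 pathway list is not reported here. Figures were drawn with matplotlib 3.10.9.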

Additional observations from a re-analysis of the deposited data

How the results depend on the processing

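The log2 fold changes of Tagln2, Diaph3, Gpr119 and Serpina10 stayed within 1 SD of the spread between replicates under all alternatives except the log2(RPKM + 0.01) difference, which gave 0.52 for Diaph3 and 0.74 for Serpina10, since that pseudocount is not small beside their RPKM. Leaving out 1 library moved them from 0.71 to 0.90 (Tagln2), 0.65 to 0.70 (Diaph3), 0.92 to 1.10 (Gpr119) and 0.82 to 0.89 (Serpina10). With edgeR all 4 passed the adjusted threshold with all libraries, and from 1 to 4 passed with 1 library left out: 2, 1 and 2 without control replicate 1, 2 or 3, and 2 without control replicate 2 and cKO replicate 3 together. Diaph3 passed in each of these. The count of 160 called genes became 254 with no count filter and 425 with DESeq2, and ranged from 60 to 549 with 1 library left out, being 69, 60 and 76 without control replicate 1, 2 or 3 and 549 without cKO replicate 3. The list genes called, 3 with all libraries, became 10 with no count filter, 7 with a robust fit and 10 with DESeq2, and ranged from 0 without control replicate 1, 2 or 3 to 17 without cKO replicate 3 (5 without cKO replicate 1). Estimates that changed sign, none of them called, were Cnn3 (-0.0139) and Tagln (-0.0169) without control replicate 2 and cKO replicate 3, and Fabp7 (-0.171) without both. With 1 library left out, Tagln ranged from -0.0581 (without cKO replicate 3) to 0.176 and Fabp7 from -0.0756 (without cKO replicate 3) to 0.8316. The cause was not tested. Of the other alternatives for named list genes and neighbours, 724 kept side and direction, 16 passed where all libraries did not, and 15 lost a call. No paired analysis was possible because the labels neither number the replicates nor pair the mice, and the numbers used here are in accession order. Of the 4 genes, counting error is widest for Serpina10, with 40 to 111 counts per library, and Gpr119, with 73 to 212.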
